A study of Medicago sativa with 15 samples.

Results

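The genes described here are 137 genes of alfalfa (Medicago sativa) roots whose level dipped after 4 h of alkaline stress and stood higher in every other library. They are 137 of 164632 genes in the tables, and of 17347 genes with a mean of at least 10 CPM in the control roots, where CPM is a read count scaled to a common library total. A gene was taken when that control mean was reached and when the highest CPM + 1 of the 3 libraries from 4 h was at most 0.5 of the lowest CPM + 1 of the 12 other libraries. The members were thus chosen by the CPM of all 15 libraries, and their low level at 4 h is a description and not a tested result. Alfalfa is a perennial, outcrossing, tetraploid forage legume. RNA came from roots of seedlings, and the 15 libraries form 5 groups of 3: roots under normal conditions (control), and roots given alkaline stress for 4, 8, 12 and 24 h, with NaHCO3 at 50 mmol/L. No stressed group received sodium without bicarbonate, and the control carries no sampling time of its own, so sodium, bicarbonate, pH and the hour of sampling cannot be told apart. Whether replicates are separate plants or cultures is not stated, so a p-value here speaks only of the spread between libraries, and that spread may be technical.

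As background, dissolved NaHCO3 raises the pH and the bicarbonate around a root, and roots counter a high pH by pumping protons outward and releasing organic acids. Iron, phosphate and other nutrients dissolve less well at high pH, and sodium adds an ionic load. An mRNA level measured in bulk tissue depends on how fast a gene is transcribed, on how fast its mRNA decays and on which cells the sample holds. Fewer cells of a type and less RNA per cell cannot be told apart in these libraries.

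The files give gene IDs without names, and the RefSeq gene table of alfalfa (assembly Bolivia_mono) lists 0 of these 164632. No role, position or sequence can therefore be attached to a member, root marker genes could not be looked up, and pathways are not analysed here. Of the members, 4 are named by ID, and the others are given by their values. Gene lengths follow from the deposited counts and FPKM (counts scaled by library total and gene length). They are called coding lengths here since 95.96% of them are multiples of 3. The sources used here do not say what the lengths cover. Members had a median coding length of 966 nt (range 168 to 5055 nt), against 1128 nt (150 to 14283 nt) for the 17210 other genes with a control mean of at least 10 CPM. Their median control level per length was 25.8 FPKM, against 22.2 FPKM for those other genes.

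Library totals ran from 6863315 to 15180708 counts. Every stressed group held a library with values intermediate to its 2 partners, judged on genes whose counts in the group summed to 300 or more. These were replicate 2 of the 4 h group, replicate 3 of the 8 h group, and replicate 1 of both the 12 h and the 24 h group. They lay in between at 72.1% to 79.3% of these genes, against 9.81% to 14.5% in the other stressed libraries and 23.1% to 38.8% in the controls. These 4 intermediate libraries were also the shallowest of their groups. The labels list them as replicates like the others, and where they came from was not tested. Were they not separate samples, each stressed group would hold 2 and not 3, and the SDs, SEs and adjusted p-values given here over 3 would be too small. Over the 137 members, 4 h replicate 2 lay strictly between the others at 56.9%. A library sets neither the highest nor the lowest value at a gene where it lies in between. But 4 h replicate 2 was the highest of the 4 h libraries at 23 members, and without it the rule took 149 genes. Results are given below with and without the 4 intermediate libraries. Without them the rule took 153 genes. All 137 members were among them, which was bound to be so, since leaving out stressed libraries cannot remove a member from the rule.

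Every member shared the dip by the rule, and the dip was deep in the set as a whole. The members together held 434, 364 and 285 CPM in 4 h replicates 1, 2 and 3, against 4834, 4630 and 4651 CPM in control replicates 1, 2 and 3. The sum was 361 ± 74.6 CPM at 4 h and 4705 ± 112 CPM in control (SD, n = 3 each), so that 7.67% of the control sum was found at 4 h. It was 3980 ± 410 CPM at 8 h, 4480 ± 843 CPM at 12 h and 4311 ± 528 CPM at 24 h (SD, n = 3 each), or 84.6%, 95.2% and 91.6% of the control sum. Without the intermediate libraries these shares were 7.64% for the 4 h group, 83.9% for 8 h, 92.1% for 12 h and 93.8% for 24 h. Abundant members weigh most in such a sum, and they moved in both directions. A member of 951 nt had means of 191 CPM in control, 355 CPM at 12 h and 491 CPM at 24 h, with 999 CPM in 24 h replicate 3. Another, of 459 nt, had means of 181, 57.9 and 24.8 CPM. A sum near that of control thus does not show that single members were back at their control level. In single libraries after 4 h the sum ran from 3529 to 5136 CPM, a range that holds all 3 control libraries. That it lies above the highest 4 h library follows from the rule.

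**Figure D1:**
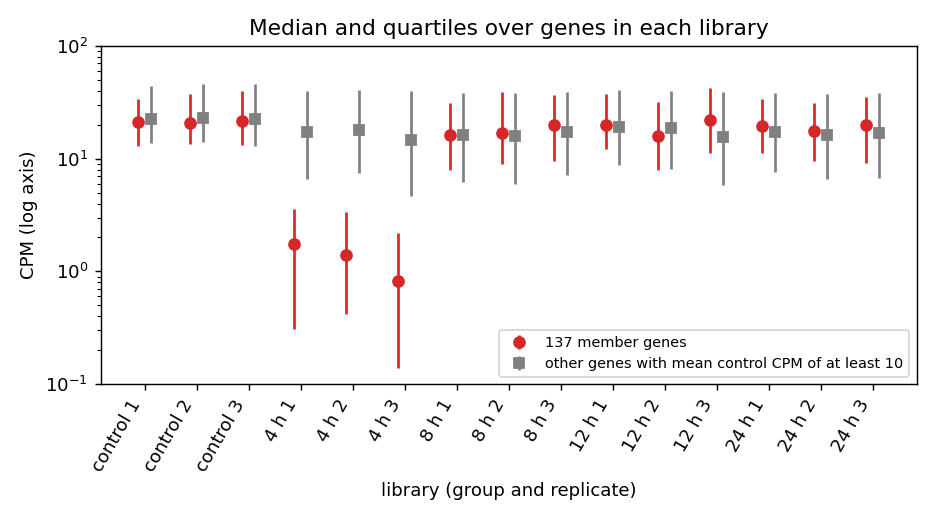
Level of the 137 member genes (red circles) and of the 17210 other genes with a mean control CPM of at least 10 (grey squares) in each of the 15 libraries, on a log axis of CPM, with points at the median over genes and bars from the lower to the upper quartile. The member medians lie at 0.825 to 1.75 CPM in the 4 h libraries and at 15.8 to 22.1 CPM in the other 12.

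The median member had 1.75, 1.40 and 0.825 CPM in 4 h replicates 1, 2 and 3, against 21.2, 20.9 and 21.7 CPM in the 3 control libraries. The 2 groups were apart for every member, as the rule requires. In group means of CPM + 1 the median member stood 9.56-fold lower at 4 h than in control, with a range of log2 differences from -7.31 to -1.49. The other genes with a control mean of at least 10 CPM had a median log2 difference of -0.50 at 4 h. Their library medians were 14.8 to 17.9 CPM at 4 h and 15.5 to 23.1 CPM in the 12 other libraries. The 4 h libraries also held the fewest genes with a count, 64162 to 69032 against 70129 to 80581 in the 12 others. Whether that has a part in the dip was not tested.

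Many members were close to absent at 4 h. No count was found in any 4 h library for 13 members, 31 had no count in 1 or 2 of the 4 h libraries, and 93 had counts in all 3. The 13 members without a count had 12.2 to 158 CPM in control, from 460 to 6405 counts over the 3 control libraries. Set against a floor of 3 counts over the 3 libraries from 4 h (0.0862 CPM), they were at least 137-fold to 1904-fold lower at 4 h, with a median bound of 185-fold. Another 5 members had 1 to 3 counts at 4 h. The 119 members with more counts were 3.07-fold to 269-fold lower at 4 h in pooled counts, with a median of 14.6-fold. Over all 137, with the members at 0 set to their bound, the median was 17.5-fold. Floors and bounds speak of counting error alone and leave out the spread between libraries. PCR copies were also not told apart by molecular identifiers, so the bounds may be too firm.

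The depth of the dip differed between the 4 h libraries. The level was lower in 4 h replicate 3 than in 4 h replicate 1 at 83 members, higher at 41 and equal at 13. The highest of the 3 libraries, which the rule turns on, was replicate 1 at 67 members, replicate 2 at 23 and replicate 3 at 34, with no highest library at the 13 members without a count. Without 4 h replicate 1 the rule took 238 genes, and without 4 h replicate 3 it took 209. The lowest of the 12 other libraries was an 8 h library at 51 members, a 12 h library at 29, a 24 h library at 29 and a control library at 28.

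At the edge of the rule, the last member inside had at most 2.44 CPM at 4 h and at least 5.91 CPM elsewhere, a ratio of 0.498. The first gene outside had at most 2.98 CPM at 4 h and a ratio of 0.503, and the next had at most 0.763 CPM at 4 h and at least 2.48 CPM elsewhere, a ratio of 0.507. The same rule turned on the other stressed groups took 28 genes that dipped only at 8 h, 19 only at 12 h and 55 only at 24 h. Without the intermediate libraries these counts were 34, 23 and 59, beside 153 at 4 h.

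**Figure D2:**
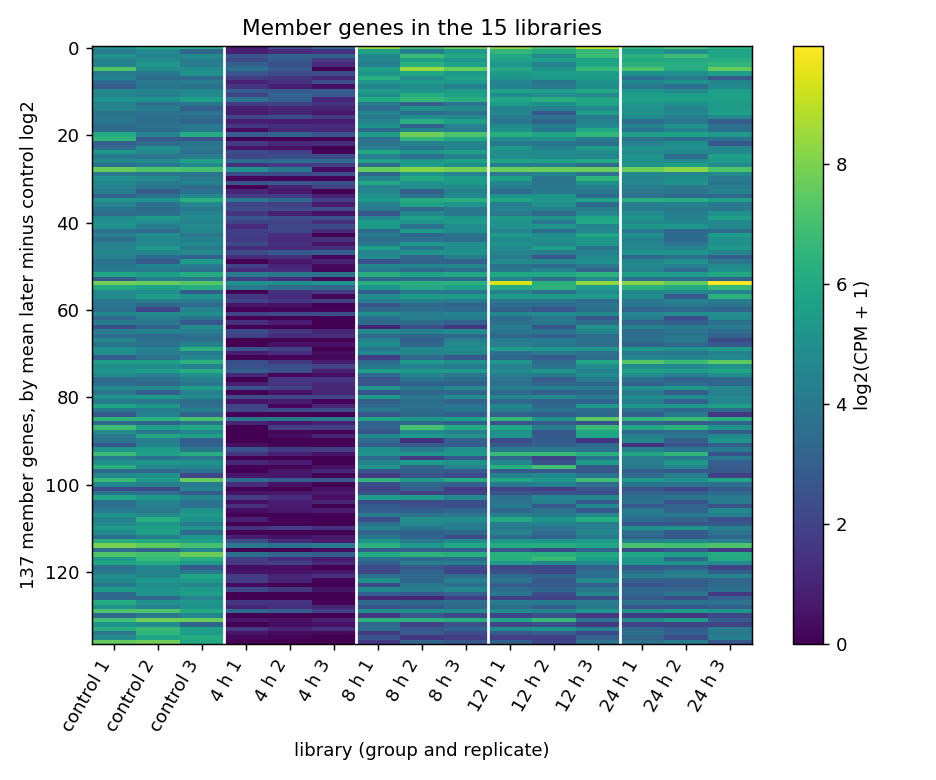
Each row is 1 of the 137 member genes and each column 1 of the 15 libraries, with colour giving log2(CPM + 1) and rows ordered by the mean log2 level at 8, 12 and 24 h minus that in control. Within every row the 3 columns from 4 h are darker than the 12 others, as the rule requires, and rows differ in how the 8, 12 and 24 h columns compare with control, brighter than control at the top and darker at the bottom.

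In edgeR's quasi-likelihood fit of all 15 libraries, all 137 members were tested and all 137 were called lower at 4 h than in control, where 12.5% of the 68605 genes tested were called lower. From 4 h to 8 h, 135 members were called higher at 8 h, where 6.75% of all genes were. Both contrasts were used by the rule, so nothing is read from these counts. Without the 4 intermediate libraries, 4 members were called lower at 4 h, among 32 genes called in all, and 136 had an unadjusted p under 0.05.

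The 2 members with the widest gap between 4 h and all other libraries were MS.gene24040 and MS.gene014834. MS.gene24040 (coding length 1530 nt) had no count in any 4 h library, against 33.7, 25.1 and 41.6 CPM in control replicates 1, 2 and 3. This is a level at least 383-fold lower, from 0 counts at 4 h and 1288 in control. It had 16.5, 12.3 and 14.4 CPM at 8 h, 19.4, 15.3 and 24.9 CPM at 12 h, and 15.3, 16.3 and 18.3 CPM at 24 h in replicates 1, 2 and 3. Every library after 4 h lay below every control library, but the differences did not pass the test, with log2 fold changes against control of -1.16 ± 0.425 at 8 h, -0.74 ± 0.42 at 12 h and -0.94 ± 0.42 at 24 h (SE, edgeR adjusted p 0.0875, 0.308 and 0.164).

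MS.gene014834 (1872 nt) had 0.153, 0.140 and 0.138 CPM at 4 h, 5 counts in all, against 31.9, 24.7 and 16.2 CPM in the control replicates. In pooled counts it was 173-fold lower at 4 h. After the dip its libraries scattered, with 21.4, 65.7 and 44.0 CPM at 8 h, 49.2, 13.2 and 89.4 CPM at 12 h, and 20.3, 30.0 and 16.6 CPM at 24 h. The ranges at each of these times overlapped the control range. Its log2 fold change against control was 0.89 ± 0.60 at 8 h, 1.11 ± 0.60 at 12 h and -0.04 ± 0.59 at 24 h (SE, edgeR adjusted p 0.343, 0.275 and 0.976), none past the test.

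The question left by the rule is where the members stood relative to control once the dip was over. These later contrasts do not set the 4 h level against another group, but the 4 h libraries enter the fit through the filter, the scaling and the shared estimate of spread, and the contrasts are not free of the rule. A member needed a control mean of at least 10 CPM and a level in every later library well above that at 4 h, which limits how far a member could fall. Group means of CPM + 1 lay within 2-fold of control at all 3 later times for 60 of the 137 members, and for 60 also without the intermediate libraries. The other members left that band at least once: 24 were 2-fold or more above control at 1 or more later times and 55 were 2-fold or more below, 2 members counting in both. Of these, 3 were 2-fold above and 14 were 2-fold below at all 3 times. The members within 2-fold at all 3 times made up 43.8%, those above at least once 17.5% and those below at least once 40.1%, against 32.7%, 18.2% and 50.9% of the 17210 other genes with a control mean of at least 10 CPM, which had no lower limit after 4 h. The highest of the 5 group means was that of control at 55 members, of 8 h at 24, of 12 h at 27 and of 24 h at 31.

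At 8 h, 2 members were called higher and 14 lower than control (1.46% and 10.2% of the members), where 5.11% of all 68605 genes were called higher and 7.29% lower. Among tested genes with a control mean of at least 10 CPM, the share called lower was 16.6% and the share called higher 4.73%. The members' median log2 fold change was -0.28, beside -0.10 over all genes tested and -0.50 over genes with a control mean of at least 10 CPM. The 14 lower members had log2 fold changes from -4.79 to -1.52 and edgeR adjusted p from 0.00175 to 0.0479. All 3 libraries lay above all 3 controls at 14 members and below at 41 (10.2% and 29.9%), where 15.6% of all genes tested lay above and 21.9% below, and 13.1% and 37.1% of those with a control mean of at least 10 CPM. The count of 16 called members was 8 without 8 h replicate 2 and 7 without 8 h replicate 3.

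At 12 h, 2 members were called higher and 8 lower (1.46% and 5.84%), where 2.92% of all genes were called higher and 4.36% lower. Among genes with a control mean of at least 10 CPM these shares were 2.46% and 11.6%. The median log2 fold change of the members was -0.15, beside 0 over all genes tested and -0.37 over genes with a control mean of at least 10 CPM. All 3 libraries lay above all 3 controls at 14 members and below at 32 (10.2% and 23.4%), where 13.9% of all genes lay above and 17.3% below, and 10.1% and 30.2% of those with a control mean of at least 10 CPM. The count of 10 called members moved when single libraries were left out, also libraries outside the groups compared, and the cause was not tested. Leaving out the control libraries in turn gave 5 for replicate 1 and 4 for replicate 2, and leaving out those of 12 h gave 2, 5 and 6 for replicates 1, 2 and 3. It was 6 when replicate 2 of 4 h, replicate 3 of 8 h or replicate 1 of 24 h was left out. Without replicate 3 of 4 h it was 13.

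At 24 h, 1 member was called higher and 11 lower (0.73% and 8.03%), where 4.61% of all genes were called higher and 6.86% lower, and 4.21% and 15.5% of genes with a control mean of at least 10 CPM. The members' median log2 fold change was -0.10, beside -0.08 over all genes tested and -0.45 over genes with a control mean of at least 10 CPM. All 3 libraries lay above all 3 controls at 14 members and below at 31 (10.2% and 22.6%), where 15.7% of all genes lay above and 21.6% below, and 13.6% and 36.7% of those with a control mean of at least 10 CPM. The count of 12 called members became 6 or 7 when control replicate 2 or 3 was left out, and 2, 5 and 5 when replicate 1, 2 or 3 of the 24 h group was. With the 4 intermediate libraries left out, edgeR called 0 members at 8, 12 and 24 h, with 15, 11 and 16 members at an unadjusted p under 0.05. On these 11 libraries limma-voom called 2, 0 and 1 members, where it called 1.17%, 0.315% and 1.64% of all genes in the fit. DESeq2 called 8, 4 and 5 members, where it called 6.88%, 4.11% and 6.25% of all genes. In the same libraries edgeR called 0.0153% of all genes at 8 h, 0% at 12 h and 0.141% at 24 h.

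**Figure D3:**
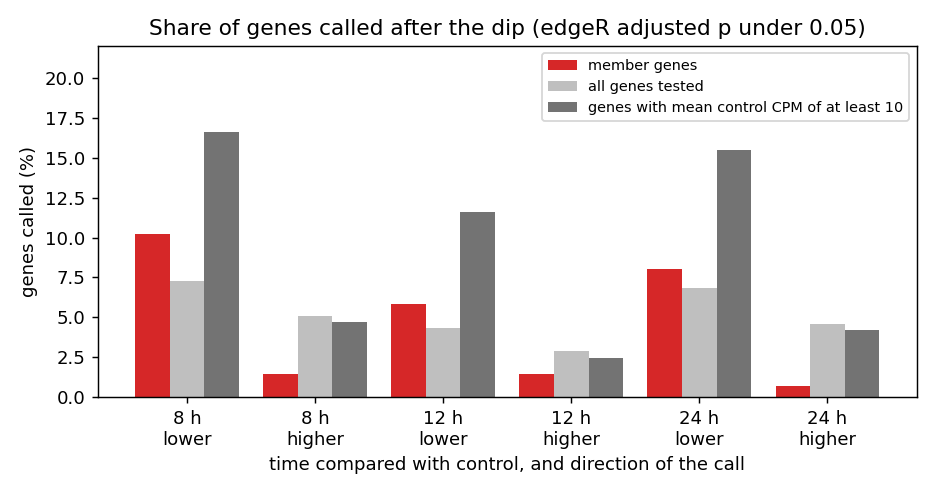
Share of genes called lower or higher than control at 8, 12 and 24 h by edgeR (adjusted p under 0.05, all 15 libraries), for the 137 member genes (red), all 68605 genes tested (light grey) and tested genes with a mean control CPM of at least 10 (dark grey). Members called lower make up 10.2% at 8 h, 5.84% at 12 h and 8.03% at 24 h, between the light and the dark grey bar each time, and members called higher make up at most 1.46%.

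Of the 137 members, 113 were called in none of the 3 later comparisons with control, 14 in 1, 6 in 2 and 4 in all 3. Over all genes tested, 79.8% were called in none and 3.04% in all 3, and over those with a control mean of at least 10 CPM 67.2% and 6.8%, beside 82.5% and 2.92% of the members. A call missed at this depth and spread does not show that a member was back at its control level. The 4 members called in all 3 were lower each time. The steepest, with a coding length of 660 nt, had no count at 4 h, against 192, 219 and 62.0 CPM in control replicates 1, 2 and 3. It had 2.13, 8.83 and 5.51 CPM at 8 h, 7.58, 3.03 and 12.9 CPM at 12 h, and 12.5, 18.4 and 5.46 CPM at 24 h. Every library after 4 h had counts, but all lay far under the lowest control library, with log2 fold changes against control of -4.79 ± 0.80, -4.29 ± 0.78 and -3.61 ± 0.75 at 8, 12 and 24 h (SE, edgeR adjusted p 0.00298, 0.00676 and 0.00934). The other 3 of these members had control means of 15.7, 50.5 and 121 CPM.

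Another of them, with a coding length of 588 nt, had 0.534, 0.279 and 0.206 CPM at 4 h, against 14.5, 93.0 and 44.0 CPM in the control replicates. Its group means were 4.16 ± 2.00 CPM at 8 h, 5.65 ± 1.69 CPM at 12 h and 11.2 ± 3.47 CPM at 24 h (SD, n = 3 each). The means were successively higher, but none of the differences between later times passed the test (edgeR adjusted p 0.791 for 12 h against 8 h, 0.319 for 24 h against 12 h and 0.188 for 24 h against 8 h).

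Among the most abundant members per length, 1 with a coding length of 354 nt had the highest control level, 453 FPKM on average. It had 11.7, 8.52 and 6.60 CPM at 4 h, against 147, 124 and 210 CPM in control. Later levels were 67.3, 87.8 and 77.2 CPM at 8 h, 79.7, 78.4 and 67.4 CPM at 12 h, and 61.6, 46.2 and 68.8 CPM at 24 h, all under the lowest control library. It was called lower at 24 h (log2 fold change -1.38 ± 0.35, SE, edgeR adjusted p = 0.0208), and missed the threshold at 8 h (a 2.01-fold lower fitted level, adjusted p = 0.0709) and at 12 h (-1.11 ± 0.35, adjusted p = 0.0657).

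A member of 459 nt, the third by control FPKM, had successively lower group means after 8 h. It had 0.610, 0.419 and 0.825 CPM at 4 h, against 116, 217 and 210 CPM in control. Its 8 h libraries were close together at 84.5, 81.0 and 77.7 CPM, while the 12 h libraries had 58.3, 102.8 and 12.5 CPM and the 24 h libraries 23.5, 44.4 and 6.48 CPM. It was called lower than control at 24 h (log2 fold change -2.78 ± 0.69, SE, edgeR adjusted p = 0.0180), and 24 h against 8 h did not pass (-1.67 ± 0.66, adjusted p = 0.164).

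On the other side, 5 members were called above control at 1 later time each. The 2 members with the highest mean log2 fold change over the 3 later times were MS.gene029589 and MS.gene96323, and both were called at 12 h. MS.gene029589 (1077 nt) had 0.687, 4.61 and 11.2 CPM at 4 h, against 33.1, 63.0 and 66.1 CPM in control replicates 1, 2 and 3. It had 347, 125 and 223 CPM at 8 h, 299, 144 and 519 CPM at 12 h, and 102, 143 and 91.2 CPM at 24 h. Every library after 4 h was above every control library. Its log2 fold change against control was 2.61 ± 0.75 at 12 h (SE, edgeR adjusted p = 0.0469), and it missed the threshold at 8 h (2.16 ± 0.74, adjusted p = 0.0669) and 24 h (1.13 ± 0.72, adjusted p = 0.330). The call at 12 h sat at the edge of the threshold: it was lost with a replicate block (adjusted p = 0.0703), without the intermediate libraries (adjusted p = 0.327), with DESeq2 size factors (adjusted p = 0.0507) and in 10 of the 15 fits that left out 1 library, over which the adjusted p was at most 0.156.

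MS.gene96323 (210 nt) had 0.839, 1.40 and 1.65 CPM at 4 h, against 16.5, 23.8 and 9.41 CPM in the control replicates. It had 51.2, 18.6 and 39.4 CPM at 8 h, 95.0, 69.4 and 99.1 CPM at 12 h, and 46.9, 28.2 and 54.9 CPM at 24 h. The 12 h and 24 h libraries all lay above the controls, while 8 h replicate 2 lay within the control range. Its log2 fold change was 2.41 ± 0.49 at 12 h (SE, edgeR adjusted p = 0.0102), a 5.33-fold higher fitted level, and the call held in each of the 15 fits that left out 1 library but not without the 4 intermediate libraries (adjusted p = 0.246). The fold changes at 8 h (1.19 ± 0.48, adjusted p = 0.110) and 24 h (1.45 ± 0.48, adjusted p = 0.0608) did not pass.

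**Figure D4:**
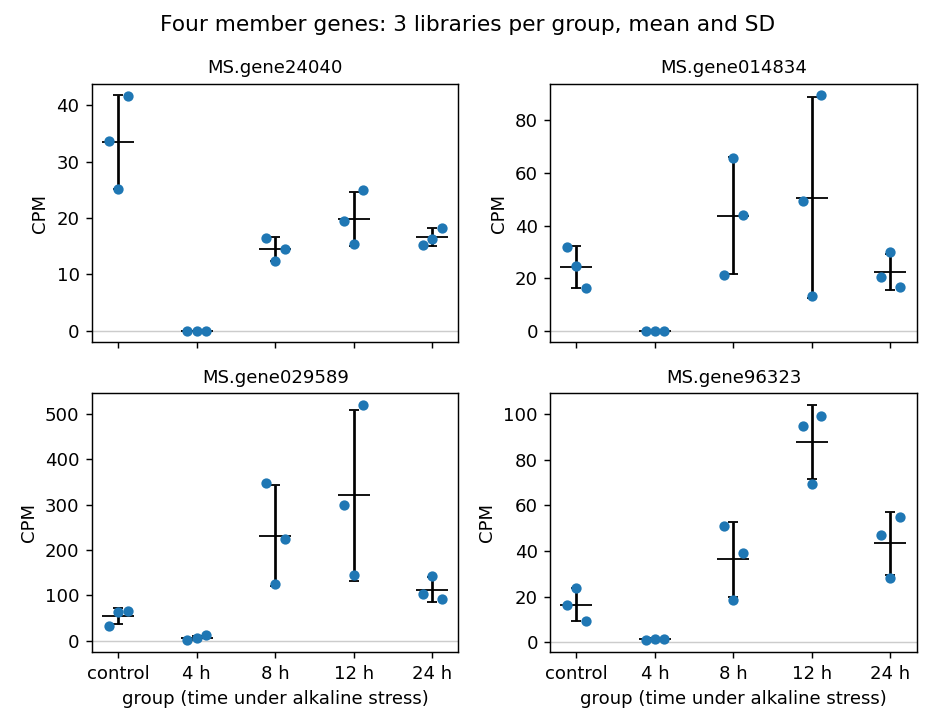
CPM of 4 member genes in the 5 groups of roots, ordered by time under stress, with a point per library (replicates 1 to 3 from left to right), a horizontal mark at the mean and bars of 1 SD (n = 3), on linear axes that differ between panels. MS.gene24040 stays below its control libraries after 4 h, MS.gene014834 scatters around its own, and MS.gene029589 and MS.gene96323 are highest at 12 h.

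The 2 members called above control at 8 h had coding lengths of 483 and 1035 nt. The first had 0.839, 0.698 and 0.757 CPM at 4 h, against 14.4, 10.7 and 8.25 CPM in control, and 21.9, 75.2 and 49.6 CPM at 8 h. Its level at 24 h was 10.9, 14.9 and 6.41 CPM, which overlaps the control range. The second had 2.44, 1.96 and 1.17 CPM at 4 h, against 21.5, 10.4 and 9.76 CPM in control, and 76.1, 29.5 and 52.7 CPM at 8 h. At 24 h it had 11.4, 17.6 and 5.94 CPM, again overlapping control. Their log2 fold changes at 8 h were 2.17 ± 0.54 and 1.98 ± 0.53 (SE, edgeR adjusted p 0.0179 and 0.0243). The member called above control at 24 h, of 1278 nt, had 3.89, 6.28 and 2.13 CPM at 4 h, against 19.8, 28.7 and 17.0 CPM in control, and 65.1, 63.9 and 71.1 CPM at 24 h (log2 fold change 1.68 ± 0.43, SE, edgeR adjusted p = 0.0200).

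Between the later times few genes were called in this fit, among the members as among all genes. Of the 137 members, 1 was called higher and 0 lower at 12 h against 8 h, where 0.972% of all genes were called higher and 0.851% lower. For 24 h against 12 h edgeR called 0 members, where 1.16% of all genes were called higher and 1.64% lower. For 24 h against 8 h it called 1 higher and 2 lower, where 1.35% of all genes were called higher and 1.35% lower. In these 3 comparisons 14, 14 and 29 members had an unadjusted p under 0.05, and DESeq2 called 7, 6 and 13, where it called 9.88%, 11.2% and 10.7% of all genes. limma-voom called 2, 1 and 4, where it called 2.07%, 3.01% and 3.16% of all genes. These edgeR counts moved when single libraries were left out, also libraries in neither group compared, and the cause was not tested. The count of 3 at 24 h against 8 h was 0 when any of the controls or replicate 2 of 4 h was left out. It was 0 too without replicate 3 of 8 h, replicate 1 of 12 h, or replicate 1 or 3 of 24 h. It was 1 without replicate 1 or 2 of 8 h or replicate 2 of 24 h, and 0 with a replicate block. The 1 call at 12 h against 8 h was gone without control replicate 2, replicate 2 of 4 h, any 8 h library, replicate 1 of 12 h or replicate 1 of 24 h, and there were 2 without replicate 3 of 4 h. In the fit of all 15 libraries, the 2 members called above control at 8 h were called lower at 24 h than at 8 h (log2 fold change -2.15 ± 0.54 and -2.16 ± 0.53, SE, edgeR adjusted p 0.0470 and 0.0435). The third, of 951 nt, had 33.5, 31.3 and 35.6 CPM at 4 h, against 221, 197 and 155 CPM in control, and had the highest mean of all members at 4 h. It had 77.4, 74.2 and 79.5 CPM at 8 h, and then 666, 75.6 and 324 CPM at 12 h and 289, 185 and 999 CPM at 24 h. It was higher at 24 h than at 8 h by a log2 fold change of 2.67 ± 0.66 (SE, edgeR adjusted p = 0.0445), while its 12 h libraries reached both below and above the control range and its 24 h libraries overlapped that range. The member called for 12 h against 8 h, of 1797 nt, had 74.0, 110.1 and 46.5 CPM at 12 h, against 11.6, 9.62 and 10.6 CPM at 8 h (log2 fold change 2.77 ± 0.63, SE, edgeR adjusted p = 0.0394). Its control libraries had 39.4, 101 and 73.0 CPM, a range that overlaps the one at 12 h. This member was called lower than control at 8 h (log2 fold change -2.69 ± 0.63, SE, edgeR adjusted p = 0.0132).

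The median SD of log2(CPM + 1) over the 3 libraries of a group was 0.45 at 8 h, 0.38 at 12 h and 0.34 at 24 h for the members and 0.44, 0.52 and 0.38 for the other genes with a control mean of at least 10 CPM. In control it was 0.49 for the members and 0.47 for the other genes. The requirement of a high lowest value bounds this spread for the members. Some members may be copies of one gene, since alleles and paralogs of a tetraploid can share reads. Unrelated genes can have the same length too, and how often other genes do was not tested, so a shared length does not show a copy. Among the members, 25 shared their coding length with another member, in 14 pairs. In 3 of these pairs log2(CPM + 1) had a Pearson correlation of at least 0.9 over the 15 libraries, all of which share the dip at 4 h that chose the members. The sources used here do not say how reads were split among such copies.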

How the data were processed

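RNA-seq of alfalfa roots was analysed in 15 libraries, grouped and numbered by their titles. The treatment label of the control libraries names alkaline stress too, and the titles were followed. The authors deposited raw read counts per gene, and FPKM values for the same genes. Dividing the deposited counts by the FPKM and the library total gave 1 length per gene, and 95.96% of these lengths were multiples of 3. Per the labels' protocols, RNA was taken up on RNeasy columns and made into SMARTer mRNA libraries. For aligner, counter, strand setting, annotation and build: not given in the sources used here.

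The members, lists, named-gene rule and alternatives were chosen with earlier results of these data known. Members follow the rule on CPM from column totals. Named genes were the 2 members with the smallest rule ratio and the 2 with the highest mean log2 fold change over the 3 later times against control. The test on counts was that of edgeR 4.0.16, run under R 4.3.3 (filterByExpr, TMM, 5 groups in all 15 libraries, glmQLFTest, two-sided), with Benjamini-Hochberg adjustment over 68605 genes and a threshold of 0.05. SE is the log2 fold change divided by the square root of F, in size. The fit was run on simulated independent libraries with a fixed spread, which cannot speak of the intermediate libraries or of the spread in these data. Alternatives used DESeq2 1.42.0, limma 3.58.1 (voom, and log2 FPKM with 1 or 0.1 added), other scalings and filters, a replicate block, and libraries left out; DESeq2 and limma-voom without the intermediate libraries were added after seeing the data. Replicate numbers were not taken to pair libraries.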

Additional observations from a re-analysis of the deposited data

Results flagged for a closer look

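For 12 h against 8 h edgeR called 1 member, higher at 12 h, and for 24 h against 8 h it called 3 members, 1 higher and 2 lower at 24 h; these contrasts test the difference between the effects of 2 times. Both counts were flagged because that difference itself passed the test. Over all genes edgeR called 0.972% higher and 0.851% lower at 12 h against 8 h, and 1.35% in each direction at 24 h against 8 h. DESeq2 called 7 and 13 members in these comparisons. Both edgeR counts were 0 without the 4 intermediate libraries and with a replicate block. Groups of 3 libraries are too small for a test of single outlying libraries.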

How the results depend on the processing

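The number of genes the rule took was 230 with 0.1 added to the CPM, 34 with 5 added, 45 with a stricter ratio, 286 with a looser one and 75 with a control mean of at least 20 CPM. It was 137 to 238 when 1 library was left out. The counts of called members (16 at 8 h, 10 at 12 h and 12 at 24 h against control) ran over 7 to 20, 2 to 13 and 2 to 18 when 1 library was left out. Between later times (1 for 12 h against 8 h, 0 for 24 h against 12 h, 3 for 24 h against 8 h) they ran over 0 to 2, 0 to 2 and 0 to 4. At an adjusted p under 0.01 the counts were 5, 2 and 4 against control, and 0 for 12 h and for 24 h against 8 h. DESeq2 called 31, 20 and 27 against control and 7, 6 and 13 between later times. limma on log2(FPKM + 1) called 26, 19 and 19, and then 4, 4 and 8. With 0.1 added to the FPKM the later counts were 3, 1 and 5. With 1 added and no filter they were 2, 2 and 7, beside 18 at 12 h against control. limma-voom called 18 at 12 h against control, 2 for 12 h against 8 h and 1 for 24 h against 12 h. Without a low-count filter edgeR called 3, 2 and 5 between later times, and with DESeq2 size factors or a filter of CPM of at least 1 in 3 libraries 2 for 12 h against 8 h. With only the groups compared in the fit it called 23 at 24 h against control, 0 for 12 h against 8 h and 2 for 24 h against 12 h. Without the 4 intermediate libraries edgeR called 0 in every comparison between or against later times. There limma-voom called 2, 0 and 1 against control, DESeq2 8, 4 and 5, and both called 0 between later times. Where a count moved, the cause was not tested. Leaving out libraries also leaves fewer residual degrees of freedom, and with 1 library left out the counts moved both up and down.

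Same-numbered libraries of different groups had correlations of their deviations from -0.0466 to 0.156, over 0.1 in 2 of 30 pairs. Libraries with different numbers had -0.156 to 0.167, over 0.1 in 6 of 60 pairs, so the numbers were not taken to pair the libraries. Between any 2 of the 4 intermediate libraries the correlation was 0.115 to 0.154. Why these libraries deviated alike was not tested. With a replicate block edgeR called 13, 7 and 10 members against control, and 0 for 12 h and for 24 h against 8 h. The log2 fold change of MS.gene014834 at 24 h against control, -0.04, turned to 0.028 without the 4 intermediate libraries and ran from -0.36 to 0.21 when 1 library was left out, being above 0 when control replicate 1 (0.21), replicate 1 of 24 h (0.025) or replicate 3 of 24 h (0.14) was left out. With 3 libraries a group, a member not called may still differ from control, and members at 0 at 4 h are known only to a bound.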
